A study of Homo sapiens with 16 samples.

Results

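Gene expression in FOXB1 Het cells was compared with that in wild-type cells at day 5 of neural crest induction, gene by gene. Both came from WA01, a human embryonic stem cell line, and were grown at 20000 cells per cm2 in a serum-free medium with 3 µM CHIR99021, an inhibitor of the kinase GSK3 that turns on WNT signalling. Both cultures began with the ROCK inhibitor Y-27632 at 10 µM. The Het line, with 2 libraries at day 5, was made with CRISPR/Cas9 and a single guide RNA aimed at the place where translation of FOXB1 starts. The wild-type cells were the isogenic lines isoWT1 and isoWT2, with 4 libraries in all at day 5, and the authors' deposited table merges them in a single group without stating which libraries entered it. A KO line made with the same guide (2 libraries at day 5) and the same groups at day 3 served for comparison. The sequence of the edited alleles, and whether Het is 1 clone, are not given in the labels. Of 23284 genes in the table, 13612 belonged to the comparison: their test had not failed and they reached at least 1 FPKM (fragments scaled by transcript length and by library depth) in Het or wild type. A test was made for 13527 of them, and 85 had none.

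Neural crest is an embryonic cell population that arises at the border of the neural plate, leaves the neural tube and forms peripheral neurons, glia, pigment cells and facial skeleton. In the usual sequence WNT, BMP and FGF signals first turn on border factors such as PAX3, PAX7, ZIC1, MSX1 and TFAP2A, and these are followed by crest specifiers such as FOXD3, SOX10 and TFAP2B. FOXB1 is a forkhead transcription factor of the early neural plate, the dorsal neural tube and the midbrain and caudal hypothalamus.

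The table holds 1 FPKM per gene and group, with no value per library, so the depth is unknown and replicate spread enters only through the deposited test scores. The standard error (SE) of a log2 change implied by those scores had a median of 0.515, with a 5th percentile of 0.416 and a 95th percentile of 1.37. The number of genes reaching 1 FPKM was 13309 in Het and 13098 in wild type. The median log2 change of the 13612 genes of the comparison, with 0.1 FPKM added to each level, was -0.04. FOXB1 itself stood at 4.47 FPKM in Het and 5.51 FPKM in wild type, a log2 change of -0.30 (SE 0.54) with a Cuffdiff q of 0.779. At day 3 it stood at 7.73 FPKM in Het and 18.3 FPKM in wild type, a log2 change of -1.25 with a Cuffdiff q of 0.0117. An edit at the start of translation need not lower the mRNA, so these levels do not check the genotype.

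At day 5 the authors' deposited test called 296 genes (2.19% of those tested) at a q-value below 0.05, of which 152 (1.12%) rose and 144 (1.06%) fell in Het. That q-value is adjusted over all 15 comparisons of the table together. Adjusted over this comparison alone, 113 genes passed, of which 66 rose and 47 fell. An unadjusted p under 0.05 was reached by 980 genes. The called changes had a median size of 1.34 on the log2 scale, the smallest being 0.76, and 241 were at least 2-fold.

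The rises included transcription factors of the neural plate border, the neural crest and the dorsal midbrain, together with WNT ligands. The falls included genes of glucose uptake and the hypoxia response, the immediate early genes EGR1 and FOS, Notch pathway genes, YAP targets and p53 targets. Among genes above 0 FPKM in both groups, the largest rise was that of DNAJC15, a mitochondrial co-chaperone, at 6.24 FPKM in Het and 0.214 FPKM in wild type (log2 change 4.87, SE 0.81, Cuffdiff q = 0.00126, the smallest q in the table). FOXD3, KBTBD10 (a kelch protein of muscle), DKFZp686D0853, ITGA8 (an integrin), SOX10, SCRG1, LOC647946, PAX7, PCDH10 (a protocadherin), CHCHD2, ZIC1, ADCYAP1 (a neuropeptide) and LIM2 followed, with log2 changes between 2.94 and 4.50. CHCHD2, a mitochondrial protein that also acts in the nucleus, was the most abundant of them, at 85.8 FPKM in Het and 8.95 FPKM in wild type. It was high in Het at day 3 as well, with 67.9 FPKM in Het and 14.1 FPKM in wild type. All the other rises named here stood under 1 FPKM in wild type, so their ratios rest on low values. Those wild-type levels ran between 0.0561 FPKM (ITGA8) and 0.605 FPKM (ZIC1). Adjusted over this comparison alone, FOXD3, ITGA8, SCRG1, LOC647946 and LIM2 no longer passed.

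The largest falls were smaller than the largest rises. HSPA6, an inducible HSP70 chaperone, had the largest, at 0.225 FPKM in Het and 1.5 FPKM in wild type (log2 change -2.73, SE 0.87, Cuffdiff q = 0.00126). CTSF (a lysosomal protease), EGR2, GRIN2B (a glutamate receptor subunit), HEY1, CYR61, ARC, STC1, HSPA4L, LOC339535, DUSP6, BHLHE40, TNFSF9, THBS1 and MYC followed, with log2 changes between -2.11 and -1.76. CYR61 and DUSP6 had the highest wild-type levels of these 15 genes, at 83.5 and 37.7 FPKM. Among abundant genes, those that rose included MIF, a cytokine, at 560 FPKM in Het and 288 FPKM in wild type, TPBG (169 FPKM in Het and 82.6 in wild type), APOE (94.6 FPKM in Het and 34.6 in wild type) and C1orf54 (87.7 FPKM in Het and 33.9 in wild type). At day 3 MIF and APOE had fallen in Het, with MIF at 133 FPKM in Het and 491 FPKM in wild type and APOE at 88.0 FPKM in Het and 171 FPKM in wild type. Those that fell included BCAT1, an enzyme of branched-chain amino acid breakdown, at 66.6 FPKM in Het and 134 FPKM in wild type, CCND2 (cyclin D2; 54.2 FPKM in Het and 135 in wild type) and VGLL3, a cofactor of TEAD factors (76.9 FPKM in Het and 170 in wild type). In a plot of the levels these genes lie clear of the diagonal along which most genes fall.

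**Figure D1:**
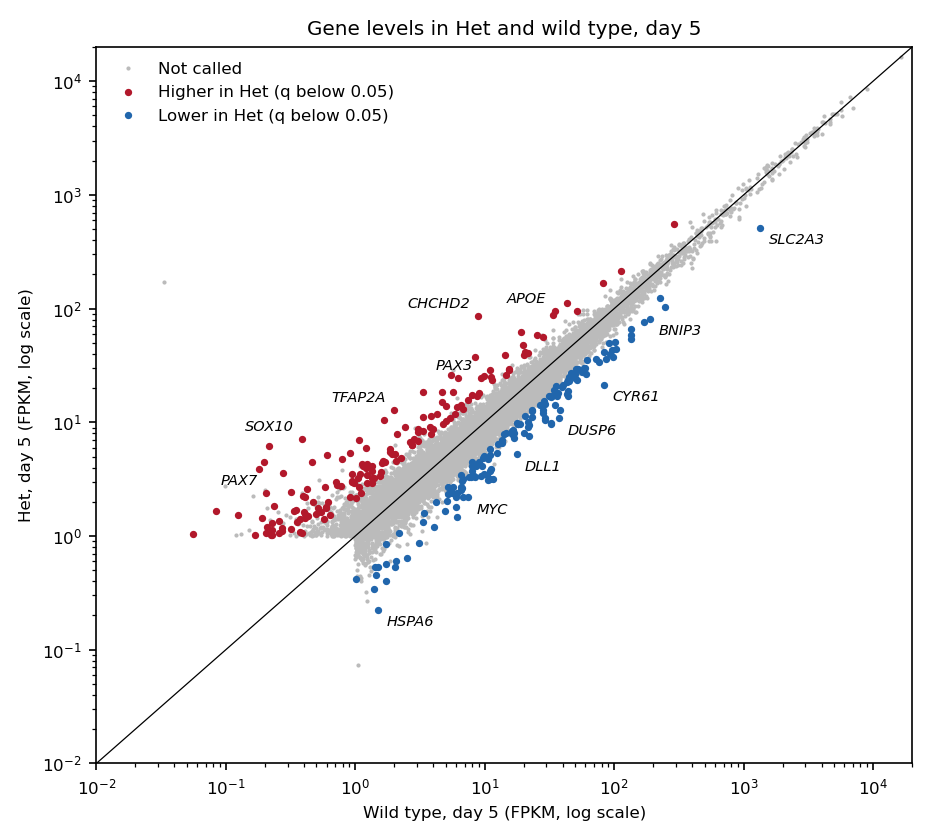
Level of each gene in Het (y axis) and wild type (x axis) at day 5, in FPKM on log scales, for genes reaching 1 FPKM in either of them and above 0 in both. Red points are the called rises and blue points the called falls in Het; CHCHD2, at 85.8 FPKM in Het and 8.95 FPKM in wild type, stands far above the diagonal and SLC2A3, at 514 FPKM in Het and 1342 FPKM in wild type, below it.

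Of 13 tested border factors 8 rose and none fell, with a median log2 change of 1.72 against -0.04 over all genes, and all 8 also passed when adjusted over this comparison alone. PAX3, a paired-box factor, had 24.6 FPKM in Het and 9.35 FPKM in wild type (log2 change 1.39, SE 0.58). Its relative PAX7 had 2.37 FPKM in Het and 0.206 FPKM in wild type (log2 change 3.53, SE 0.82). The zinc-finger factor ZIC1 had 5.16 FPKM in Het and 0.605 FPKM in wild type (log2 change 3.09, SE 0.73). Each of the 3 was thus well above its wild-type level, PAX7 and ZIC1 starting from under 1 FPKM. TFAP2A, an AP-2 factor needed for crest formation, had 12.7 FPKM in Het and 1.98 FPKM in wild type (log2 change 2.68, SE 0.67, Cuffdiff q = 0.00126). The homeobox repressors MSX1 and MSX2, which respond to BMP, had 18.4 and 37.5 FPKM in Het against 4.66 and 8.35 FPKM in wild type. ZIC4 and TFAP2C were the other 2 that rose. The most abundant border factor, ZIC2, had 86.0 FPKM in Het and 85.6 FPKM in wild type and did not pass the test. PRDM1 and HES4 lay lower in Het (log2 changes -1.15 and -1.09, Cuffdiff q = 0.0643 and 0.0784), short of the threshold. The remaining 7 of the 20 listed factors stayed under 1 FPKM in both groups, and with them the median was 0.41.

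The crest specifiers were divided. Of 20 tested members 5 rose and 2 fell, with a median log2 change of 0.18. The median was 0.10 within bins of transcript GC content and 0.39 without chromosome 12 genes. Over all 24 listed members, each above 0 FPKM in a group, it was 0.03. Among the rises, FOXD3, SOX10 and MEF2C reached 1 FPKM in Het only. Adjusted over this comparison alone 3 rose and 1 fell, FOXD3, NR2F1 and NR2F2 no longer passing. In wild type at day 5 SOX10 stood at 0.388 FPKM and FOXD3 at 0.198 FPKM, so 2 defining crest genes were below 1 FPKM in cells labelled neural crest. In Het SOX10 stood at 7.07 FPKM and FOXD3 at 4.49 FPKM, log2 changes of 4.19 (SE 0.85, Cuffdiff q = 0.00126) and 4.50 (SE 1.14, Cuffdiff q = 0.0105). SOX10 and FOXD3 maintain crest progenitors and are switched on as crest forms. TFAP2B, a paralogue of TFAP2A, had 10.4 FPKM in Het and 1.67 FPKM in wild type (log2 change 2.64, SE 0.59). MEF2C and the orphan nuclear receptor NR2F1 also rose, with log2 changes of 1.56 and 1.06. The paralogue NR2F2 fell, at 26.7 FPKM in Het and 49.6 FPKM in wild type (log2 change -0.89, SE 0.42, Cuffdiff q = 0.0152). MYC, a growth regulator that also marks border cells, was the other that fell. Specifiers of the delaminating crest did not pass the test: SNAI2, a repressor of E-cadherin, had 19.5 FPKM in Het and 23.2 FPKM in wild type, and SOX9 had 6.62 FPKM in Het and 3.39 FPKM in wild type (Cuffdiff q = 0.101). ETS1 had 10.9 FPKM in Het and 6.45 FPKM in wild type, also short of the threshold. In a bulk sample, more cells of a type and more RNA per cell cannot be told apart.

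A smaller part of the crest genes acting later than the specifiers was called than of the border factors. Over all tested genes 1.12% rose and 1.06% fell. Among 26 tested genes of crest migration and the crest cell surface, 2 rose and none fell, with a median log2 change of -0.10. EDNRA, the endothelin receptor of cranial crest, had 18.5 FPKM in Het and 3.31 FPKM in wild type (log2 change 2.48, SE 0.55). CDH6, a cadherin of early crest, had 25.8 FPKM in Het and 5.49 FPKM in wild type (log2 change 2.23, SE 0.49). NGFR, the receptor often used to sort crest, had 14.3 FPKM in Het and 17.5 FPKM in wild type, and the adhesion gene CDH2 had 106 FPKM in Het and 134 FPKM in wild type, neither passing. The melanocyte and glia list had 7 tested members with a median log2 change of 0.29, and PMEL, a pigment cell gene, had 168 FPKM in Het and 186 FPKM in wild type without passing.

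A list of midbrain genes also held those of the isthmus, the border with the hindbrain. Of its 8 tested members 6 rose and none fell, with a median log2 change of 1.31, and 3 of the 6 passed when adjusted over this comparison alone. OTX2, the homeobox gene of forebrain and midbrain, had 25.0 FPKM in Het and 11.2 FPKM in wild type (log2 change 1.15, SE 0.57). LMX1A and LMX1B, which act in the roof plate and in dopaminergic neuron precursors, had 13.9 and 3.46 FPKM in Het against 5.01 and 1.23 FPKM in wild type. WNT1, which is expressed at the isthmus and along the dorsal midline, had 58.5 FPKM in Het and 25.3 FPKM in wild type (log2 change 1.21, SE 0.58, Cuffdiff q = 0.00749). OTX1 and DMBX1 were the other 2, with log2 changes of 2.6 and 1.67. The 10 other listed members were under 1 FPKM in both groups, and with them the median was 0.68. Hindbrain identity genes of the HOX clusters were nearly silent: 2 of 28 reached 1 FPKM and neither was called, with HOXA2 at 9.19 FPKM in Het and 10.4 FPKM in wild type.

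Among secreted WNT proteins and their modulators 5 of 15 tested members rose and none fell, and 3 of the 5 passed when adjusted over this comparison alone. The list's median log2 change was 0.56, but 0.29 within bins of transcript GC content and 0.33 without chromosome 12 genes, among them WNT1 and WNT10B. WNT3A, a canonical ligand, had 11.2 FPKM in Het and 3.31 FPKM in wild type (log2 change 1.75, SE 0.69). WNT10B had 11.9 FPKM in Het and 4.26 FPKM in wild type, and RSPO3, a secreted enhancer of WNT receptors, had 5.93 FPKM in Het and 1.20 FPKM in wild type. WNT1 and NOTUM, an enzyme that inactivates WNT ligands, were the others, NOTUM with a log2 change of 1.64. The secreted inhibitors SFRP1 and SFRP2 had 56.4 and 84.9 FPKM in Het against 64.6 and 102 FPKM in wild type and were not called. Receptors and target genes of the pathway did not follow at the threshold: 0 of 21 tested members were called in either direction, with a median log2 change of 0.08 that turned to -0.01 within GC bins. AXIN2, a feedback target, had 34.7 FPKM in Het and 24.9 FPKM in wild type (log2 change 0.48, SE 0.48, Cuffdiff q = 0.349). TNFRSF19 came nearest, at 13.5 FPKM in Het and 7.44 FPKM in wild type (Cuffdiff q = 0.0532). All cultures contained CHIR99021, which acts downstream of WNT ligands and receptors.

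Of 12 BMP ligands and antagonists tested, 2 rose and none fell, and of these BMP4 passed when adjusted over this comparison alone. BMP4 had 9.15 FPKM in Het and 2.40 FPKM in wild type (log2 change 1.93, SE 0.77, Cuffdiff q = 0.00316). GREM1, an antagonist that binds BMP4, had 4.42 FPKM in Het and 1.61 FPKM in wild type (log2 change 1.45, SE 0.59). A ligand and an antagonist were thus higher together, while BMP7 had 20.4 FPKM in Het and 32.0 FPKM in wild type, and FST had 39.6 FPKM in Het and 54.4 FPKM in wild type, without passing. Of 14 tested members of the list of BMP receptors and response genes HEY1 was called, and it fell. HEY1 had 0.637 FPKM in Het and 2.51 FPKM in wild type, and no longer passed when adjusted over this comparison alone. That list leaves out MSX1 and MSX2, given above among the border factors, which also respond to BMP and rose by 1.98 and 2.17 on the log2 scale. The direct BMP targets ID1 and ID3 had 43.3 and 119 FPKM in Het against 29.6 and 123 FPKM in wild type.

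Of 22 tested members of the hypoxia and glycolysis list 9 fell, 13 did not pass and none rose, with a median log2 change of -0.86, and 6 of the 9 passed when adjusted over this comparison alone. SLC2A3, the high-affinity glucose transporter GLUT3, had 514 FPKM in Het and 1342 FPKM in wild type (log2 change -1.38, SE 0.58, Cuffdiff q = 0.00476). SLC2A1, encoding GLUT1, had 44.6 FPKM in Het and 103 FPKM in wild type (log2 change -1.21, SE 0.41). HK2, the hexokinase that traps glucose in the cell, had 9.87 FPKM in Het and 32.8 FPKM in wild type (log2 change -1.73, SE 0.46). Glucose transporters and hexokinase were thus between 2.31-fold and 3.32-fold lower in Het. BNIP3, a mitophagy receptor induced by low oxygen, had 81.4 FPKM in Het and 189 FPKM in wild type (log2 change -1.22, SE 0.42). P4HA1, a collagen prolyl hydroxylase, PFKFB4, KDM3A, PDK1 and VEGFA were the other 5. The abundant enzymes of the glycolytic trunk did not pass: LDHA had 748 FPKM in Het and 927 FPKM in wild type, PGK1 had 466 FPKM in Het and 529 FPKM in wild type, and ENO1 had 1623 FPKM in Het and 1707 FPKM in wild type. Outside this list the neuronal enolase ENO2 had 125 FPKM in Het and 227 FPKM in wild type and fell (log2 change -0.86, SE 0.41), and SLC2A14, a near-identical copy of SLC2A3 whose reads the counting could share with it, had 104 FPKM in Het and 249 FPKM in wild type. SLC2A3, SLC2A14 and ENO2 lie on chromosome 12, whose genes had a median log2 change of -0.27. Without chromosome 12 genes the list's median was -0.82.

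The promoter of BNIP3 is shown because it is a well-studied example of a hypoxia-response promoter among the genes that fell. It spans 250 bases before to 50 after the start (chr10:131981874-131982173, minus strand, RefSeq, GRCh38.p14), and capitals mark the hypoxia-response core, searched as ACGTG and GCGTG on both strands, with 6 matches, some of them overlapping.
BNIP3: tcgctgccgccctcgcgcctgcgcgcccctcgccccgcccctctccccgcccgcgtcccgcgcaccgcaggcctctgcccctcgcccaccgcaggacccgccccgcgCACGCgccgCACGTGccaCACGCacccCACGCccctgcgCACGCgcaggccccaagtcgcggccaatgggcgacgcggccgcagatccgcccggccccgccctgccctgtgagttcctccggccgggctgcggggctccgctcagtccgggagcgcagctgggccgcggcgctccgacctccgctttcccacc
At least 1 such core stood in 6 of the 7 fallen members with a promoter in the RefSeq table and in 9 of 11 tested members that did not fall. It also stood in 48.4% of all 27305 promoters and in 63.6% of the 10204 promoters of tested genes. These letters are common, and a match is not a binding site.

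Of 21 tested FGF ligands, receptors and ERK targets 4 fell and 1 rose, with a median log2 change of -0.28. Adjusted over this comparison alone 3 fell and none rose, DUSP5 and ETV1 no longer passing. The transcription factors EGR1 and FOS, immediate early genes that ERK signalling switches on within minutes, had 37.8 and 12.9 FPKM in Het against 98.0 and 37.9 FPKM in wild type, log2 changes of -1.38 (SE 0.49) and -1.55 (SE 0.56). DUSP6, a phosphatase that shuts ERK off and is induced by it, had 10.9 FPKM in Het and 37.7 FPKM in wild type (log2 change -1.79, SE 0.48, Cuffdiff q = 0.00126). DUSP5, a nuclear ERK phosphatase, had 3.38 FPKM in Het and 9.34 FPKM in wild type. EGR2 and ARC, immediate early genes outside this list, were 4.09-fold and 3.77-fold lower in Het. Other feedback genes of the FGF pathway did not pass: SPRY2 had 13.0 FPKM in Het and 14.5 FPKM in wild type, SPRED1 had 10.6 FPKM in Het and 12.9 FPKM in wild type, and the receptor FGFR1 had 75.6 FPKM in Het and 83.3 FPKM in wild type. ETV1, an ETS factor, rose to 7.13 FPKM in Het, against 2.87 FPKM in wild type (log2 change 1.31, SE 0.54). MYC had 2.21 FPKM in Het and 7.46 FPKM in wild type (log2 change -1.76, SE 0.60, Cuffdiff q = 0.00316).

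The EGR1 promoter (chr5:138465229-138465528, plus strand, RefSeq, GRCh38.p14, 250 bases before to 50 after the start) is shown because EGR1 was the most abundant fallen gene of that list. Capitals mark 2 CArG boxes, the element bound by serum response factor, searched on both strands by its letters.
EGR1: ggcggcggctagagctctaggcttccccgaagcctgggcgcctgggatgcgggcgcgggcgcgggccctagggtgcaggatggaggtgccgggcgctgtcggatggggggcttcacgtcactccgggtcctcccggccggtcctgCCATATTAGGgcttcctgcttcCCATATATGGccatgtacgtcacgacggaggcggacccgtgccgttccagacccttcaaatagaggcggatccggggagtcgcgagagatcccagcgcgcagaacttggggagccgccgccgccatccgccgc
Among the 3 fallen members with a promoter in the table EGR1 was the only one with a match, against 0 of 13 tested members that did not fall, and 1.3% of all promoters held one. The share among promoters of tested genes was 1.1%.

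In the Notch pathway 3 of 17 tested members fell and none rose, with a median log2 change of -0.52, and DLL1 and HES1 passed when adjusted over this comparison alone. DLL1, a Notch ligand of neural progenitors, had 5.25 FPKM in Het and 17.6 FPKM in wild type (log2 change -1.75, SE 0.46, Cuffdiff q = 0.00126). HES1, the effector that Notch switches on and that holds back differentiation, had 9.73 FPKM in Het and 32.4 FPKM in wild type (log2 change -1.73, SE 0.56, Cuffdiff q = 0.00126). NRARP, a Notch target that limits the signal, had 7.85 FPKM in Het and 16.1 FPKM in wild type (log2 change -1.04, SE 0.46). Within this list, a ligand and 2 target genes were thus lower together. The list holds HEYL but not its relative HEY1, which was counted above with the BMP response genes and fell (log2 change -1.98, SE 0.85). The receptors NOTCH2 and NOTCH3 had 25.6 and 24.9 FPKM in Het against 22.8 and 22.4 FPKM in wild type, with no call. The ligand JAG1 and the glycosyltransferase LFNG lay lower in Het without passing (Cuffdiff q = 0.0784 and 0.0538).

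The promoter of HES1 (chr3:194135898-194136197, plus strand, RefSeq, GRCh38.p14, the same 300 bases around the start) is shown because HES1 is the textbook target of RBPJ, the DNA-binding partner of Notch. Capitals mark the RBPJ motif GTGGGAA, searched on both strands, with 1 match.
HES1: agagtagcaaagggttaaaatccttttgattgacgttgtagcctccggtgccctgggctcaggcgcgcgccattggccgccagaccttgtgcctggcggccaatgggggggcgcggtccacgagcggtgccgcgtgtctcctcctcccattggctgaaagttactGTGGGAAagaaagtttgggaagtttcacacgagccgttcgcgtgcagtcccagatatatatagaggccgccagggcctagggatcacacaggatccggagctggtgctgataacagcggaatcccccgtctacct
Of the 2 fallen members with a promoter in the table, HES1 had a match, as did 2 of 11 tested members that did not fall. The motif stood in 6.3% of all promoters and in 5.7% of those of tested genes.

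A further list joined targets of YAP, the cofactor that reads cell density and tension, with contractile genes. Of its 19 tested members 5 fell and none rose, with a median log2 change of -0.30, and 3 of the 5 (CYR61, CTGF and ANKRD1) passed when adjusted over this comparison alone. CYR61 and CTGF, matricellular proteins and standard YAP targets, had 21.5 and 26.8 FPKM in Het against 83.5 and 60.3 FPKM in wild type, log2 changes of -1.96 (SE 0.45) and -1.17 (SE 0.45). ANKRD1 had 3.88 FPKM in Het and 11.1 FPKM in wild type, AJUBA had 51.0 FPKM in Het and 102 FPKM in wild type, and AMOTL2 had 20.7 FPKM in Het and 35.6 FPKM in wild type. THBS1, another matricellular gene, was 3.41-fold lower in Het. The YAP target LATS2 had 6.65 FPKM in Het and 11.1 FPKM in wild type and did not pass (Cuffdiff q = 0.101). Among the contractile members that did not pass, TAGLN had 328 FPKM in Het and 344 FPKM in wild type, TPM1 had 323 FPKM in Het and 398 FPKM in wild type, and MYL9 had 89.5 FPKM in Het and 61.7 FPKM in wild type.

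The promoter of CTGF, named CCN2 in RefSeq (chr6:131951323-131951622, minus strand, GRCh38.p14, the same 300 bases around the start), is shown because it holds the TEAD motif through which YAP is known to act. Capitals mark GGAATG, searched on both strands, with 3 matches.
CTGF: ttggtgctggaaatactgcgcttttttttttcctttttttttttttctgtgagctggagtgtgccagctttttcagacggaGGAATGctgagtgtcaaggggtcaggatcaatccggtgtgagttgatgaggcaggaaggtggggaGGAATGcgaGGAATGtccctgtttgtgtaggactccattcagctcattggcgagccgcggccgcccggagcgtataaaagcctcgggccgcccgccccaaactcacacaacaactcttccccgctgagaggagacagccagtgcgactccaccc
Of the 4 fallen members with a promoter in the table, CTGF and ANKRD1 had a match, as did 2 of 11 tested members that did not fall. The motif stood in 14% of all promoters and in 10.7% of those of tested genes.

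Target genes of p53 were lower in Het throughout the list. All 26 tested members had a log2 change below 0, against 54.6% of all tested genes, and 6 of them fell, with a median of -0.65. ZMAT3, an RNA-binding p53 target, had 10.6 FPKM in Het and 29.2 FPKM in wild type (log2 change -1.47, SE 0.48, Cuffdiff q = 0.00126). RRM2B, a ribonucleotide reductase subunit used in DNA repair, had 35.8 FPKM in Het and 86.0 FPKM in wild type (log2 change -1.26, SE 0.50), and the kinase PLK2 had 33.8 FPKM in Het and 76.1 FPKM in wild type. MDM2, the ligase that degrades p53, had 18.2 FPKM in Het and 36.5 FPKM in wild type (log2 change -1.0, SE 0.48). SPATA18 and SESN1 were the other 2. Of the 6, 3 passed when adjusted over this comparison alone. The cell cycle inhibitor CDKN1A had 66.8 FPKM in Het and 100 FPKM in wild type (log2 change -0.58, SE 0.44, Cuffdiff q = 0.198) and was not called.

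Lists of neural genes held calls in both directions, where over all tested genes 1.12% rose and 1.06% fell. Of 14 tested central neural progenitor genes 12 lay below 0, with a median log2 change of -0.34, but only SOX21 fell, at 16.7 FPKM in Het and 32.7 FPKM in wild type (log2 change -0.97, SE 0.47, Cuffdiff q = 0.0466). SOX2, the pan-neural and stem cell factor, had 102 FPKM in Het and 140 FPKM in wild type and did not pass. OLIG3, a bHLH factor of the dorsal neural tube, rose to 1.67 FPKM in Het, against 0.339 FPKM in wild type (log2 change 2.30, SE 0.90). Among 13 neurogenic and sensory genes GAP43, a growth cone protein, rose to 61.9 FPKM in Het, against 19.2 FPKM in wild type (log2 change 1.69, SE 0.47), while the neurotrophin receptors NTRK2 and NTRK3 fell to 14.3 and 2.39 FPKM in Het, against 34.7 and 5.63 FPKM in wild type. Of 29 tested axon guidance genes 4 rose and none fell: DCC, the netrin receptor, had 3.01 FPKM in Het and 0.709 FPKM in wild type, its partner UNC5C had 3.48 FPKM in Het and 1.09 FPKM in wild type, and EPHA7 and SEMA3F had log2 changes of 0.97 and 1.03.

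Lists of other lineages held 5 calls among them, where 2.19% of all tested genes were called. Of 25 genes of primitive streak, mesoderm and endoderm only 2 reached 1 FPKM, KDR rising to 1.63 FPKM in Het, against 0.404 FPKM in wild type, and 4 defining genes (MSGN1, FOXA2, SOX17 and MYOD1) were listed at 0 in both groups. The summed level of that list was 7.83 FPKM in Het and 5.26 FPKM in wild type. Of 12 placode and epidermal genes EYA4 rose (2.58 FPKM in Het and 0.425 FPKM in wild type) and FOXI3 fell (2.19 FPKM in Het and 6.05 FPKM in wild type). The 11 tested pluripotency and NODAL genes had no call and a median log2 change of -0.11, with POU5F1 at 4.79 FPKM in Het and 3.61 FPKM in wild type. Of 17 mesenchyme and matrix genes COL1A2 rose to 95 FPKM in Het, against 52.0 FPKM in wild type, and TNC to 4.82 FPKM in Het, against 2.25 FPKM in wild type. The part of these cell types in the results above was not tested.

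The other lists held between 0 and 2 calls each, where 2.19% of all tested genes were called. STRA6, the retinol transporter, rose to 7.01 FPKM in Het, against 1.08 FPKM in wild type, as the only one of 12 tested retinoic acid genes, and CRABP1, a retinoic acid binding protein, had 2021 FPKM in Het and 2013 FPKM in wild type. Of 19 interferon and antigen presentation genes the antiviral membrane proteins IFITM1 and IFITM3 rose to 111 and 213 FPKM in Het, against 43 and 113 FPKM in wild type. Of 14 tested members of the forkhead list, which does not hold FOXD3 and FOXI3 (both called, in other lists), FOXO1 was called, falling to 2.42 FPKM in Het, against 5.53 FPKM in wild type. Among 18 tested ATF4 and unfolded protein genes, 5 metallothioneins, 22 cell cycle genes and 18 housekeeping genes none was called, with medians of -0.36, 0.79, -0.18 and -0.02. The 5 metallothioneins were all above 0 on the log2 scale, but with SEs of 0.98 to 2.03.

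**Figure D2:**
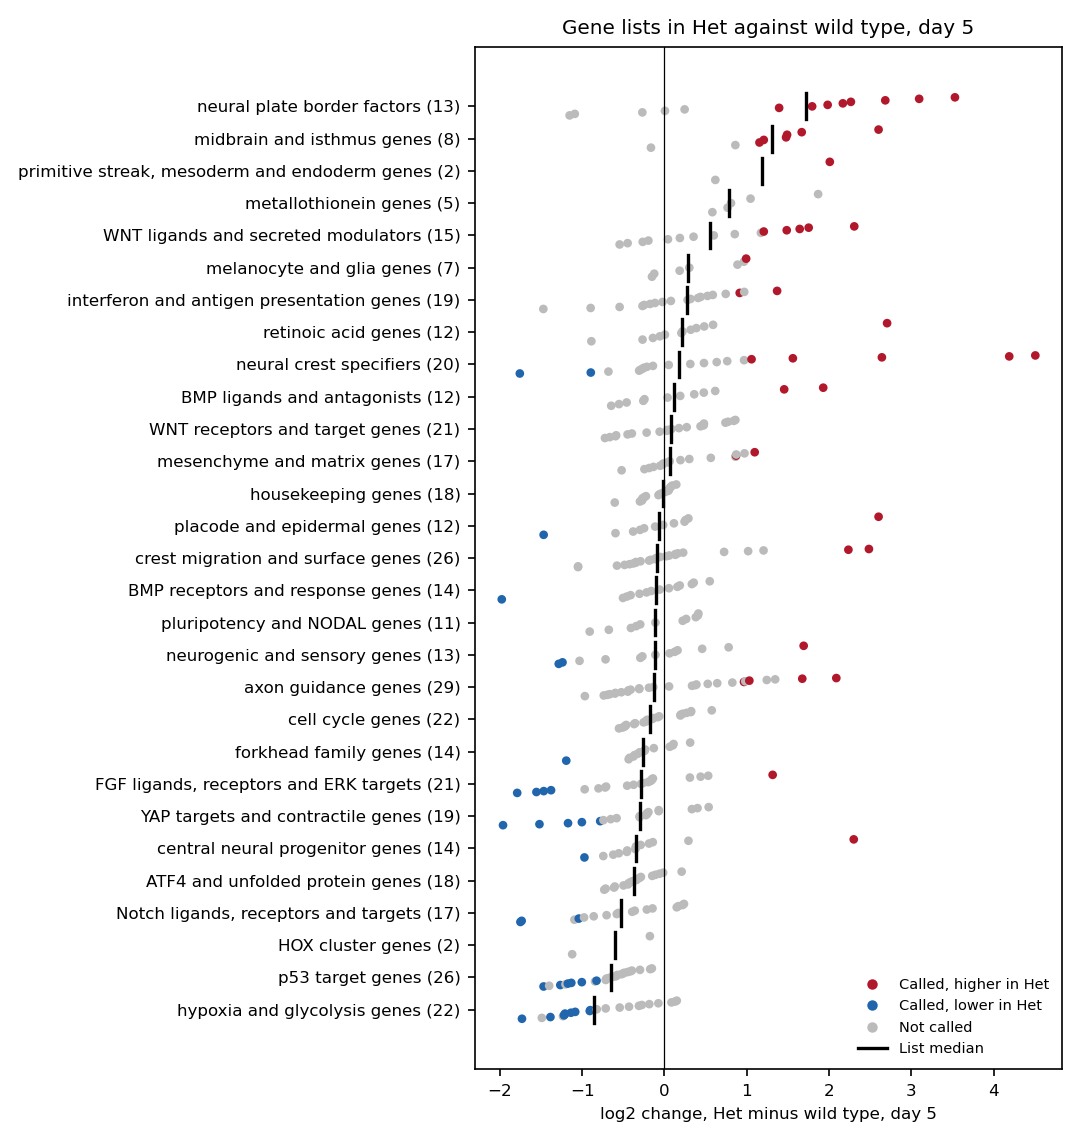
Log2 change in FPKM, Het minus wild type at day 5 (x axis), of each tested member of the gene lists (rows). Red points are called rises, blue points called falls, grey points not called, and black bars list medians; the border factors have a median of 1.72 with 8 rises, and the hypoxia and glycolysis genes a median of -0.86 with 9 falls.

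The same genes were looked up at day 3, in separate libraries of the same lines. Of the 152 genes that rose at day 5, 124 were tested at day 3, and 67 of them rose and 6 fell there, where 6.5% of all tested genes were called, 1.66% rising and 4.84% falling. Of the 144 that fell at day 5, 130 were tested at day 3, and 28 fell and 6 rose. The median log2 change at day 3 was 1.11 for the day 5 rises and -0.45 for the day 5 falls. TFAP2A had 3.85 FPKM in Het and 0.338 FPKM in wild type at day 3, PAX7 had 8.80 FPKM in Het and 0.494 FPKM in wild type, and WNT3A had 3.45 FPKM in Het and 0.331 FPKM in wild type, all called. These 3 genes of border and dorsal midline were thus already high in Het 2 days earlier. SOX10, in contrast, had 0.773 FPKM in Het and 0.455 FPKM in wild type at day 3 (Cuffdiff q = 0.401), and reached 7.07 FPKM in Het at day 5. By list, 6 of 10 tested border factors and 7 of 8 midbrain and isthmus genes rose at day 3, and 14 of 26 p53 targets fell there. The hypoxia and glycolysis genes, with 9 falls at day 5, had 1 at day 3 among 21 tested: SLC2A1 had 75.0 FPKM in Het and 73.1 FPKM in wild type, and BNIP3 had 55.5 FPKM in Het and 62.7 FPKM in wild type. The YAP and contractile genes had 6 rises and no fall at day 3 among 18 tested, with a median of 0.45, and CTGF had 55.5 FPKM in Het and 24.2 FPKM in wild type there.

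**Figure D3:**
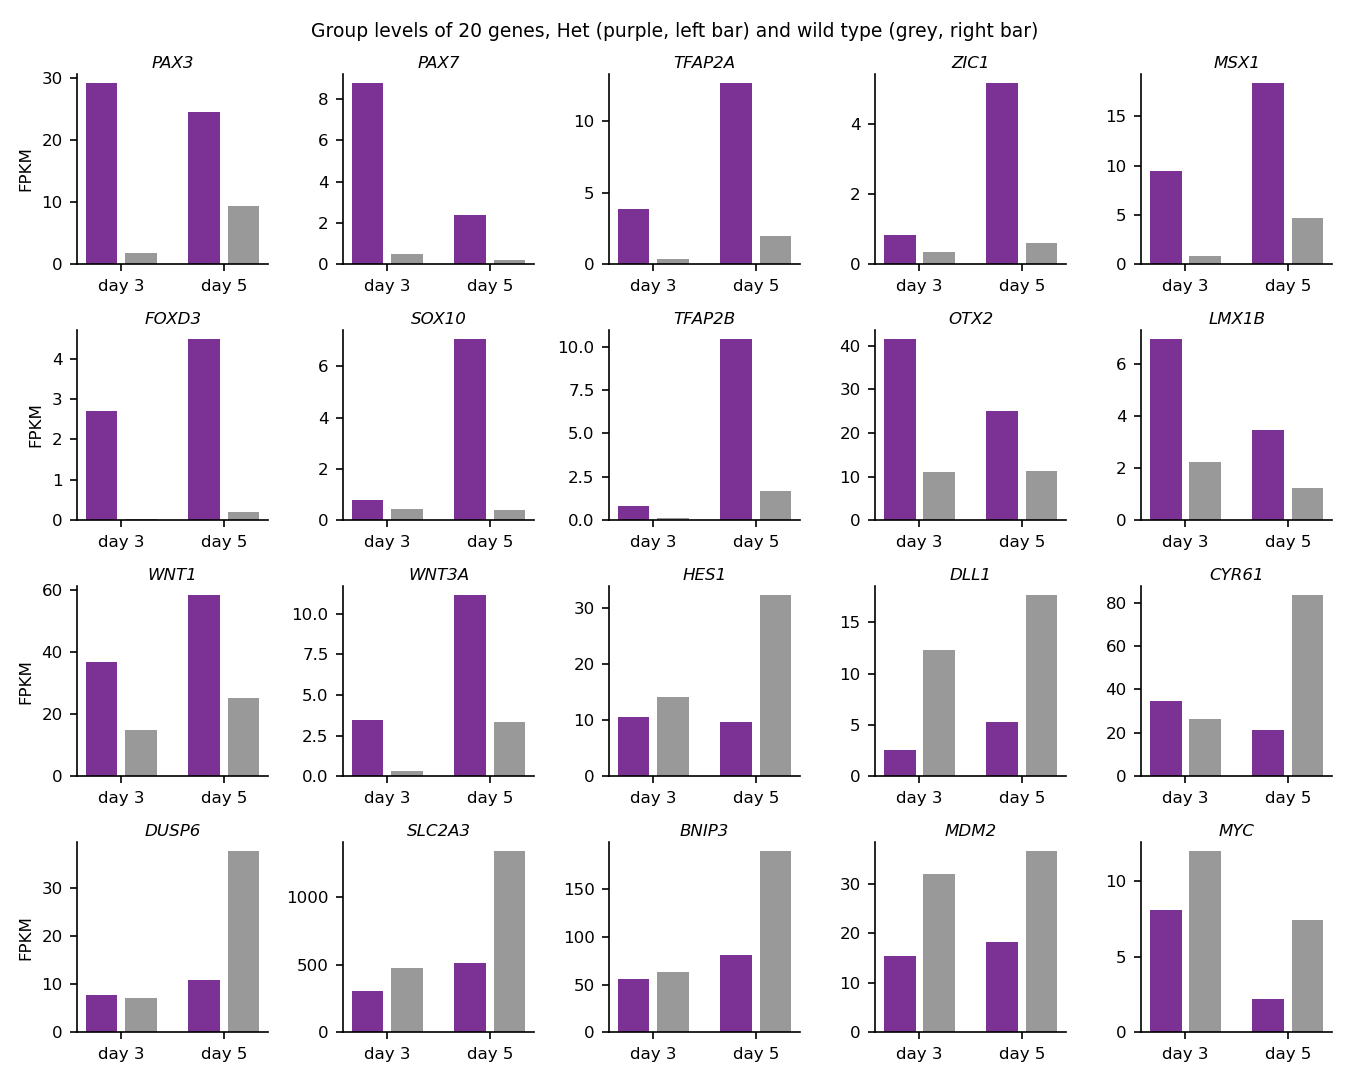
Group level in FPKM (y axis) of 20 genes in Het (purple, left bar of each pair) and wild type (grey, right bar) at day 3 and day 5. Each bar is 1 deposited group value without an error bar; TFAP2A is higher in Het at both days, with 12.7 FPKM in Het and 1.98 FPKM in wild type at day 5, and SLC2A3 reaches 514 FPKM in Het and 1342 FPKM in wild type at day 5.

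**Figure D4:**
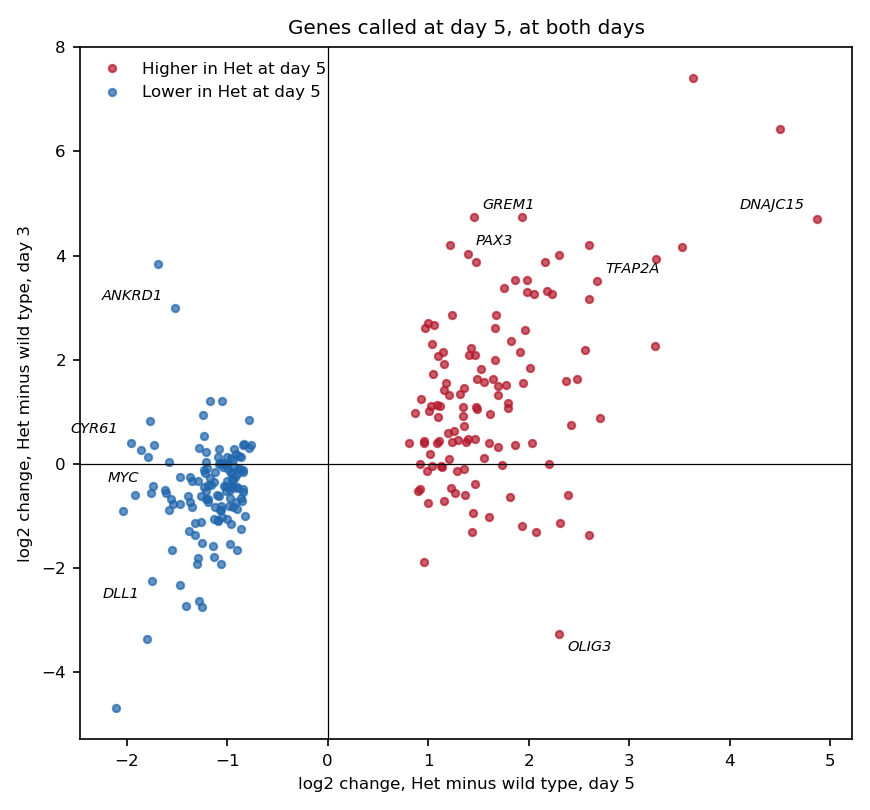
Log2 change in FPKM, Het minus wild type, at day 3 (y axis) and day 5 (x axis) of genes called at day 5, tested at day 3 and off the Y chromosome. Red points rose and blue points fell at day 5; OLIG3 lies at 2.30 at day 5 and -3.28 at day 3, and ANKRD1 at -1.52 at day 5 and 2.99 at day 3.

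Whether the Het effect itself differed between the days was tested by subtracting the day 3 log2 change and dividing by the combined implied SE, with a normal approximation and Benjamini-Hochberg adjustment below 0.05. Of 13587 genes 17 passed (0.125%), 10 higher (0.0736%) and 7 lower (0.0515%) at day 5, and 271 had an unadjusted p under 0.05. The median SE of the difference was 0.736 on the log2 scale, which limits the shifts that could be detected. Of the 17, 7 were small RNA features, whose FPKM are unreliable in libraries of polyadenylated RNA, and 1 was Y-linked. OLIG3 had 1.23 FPKM in Het and 12 FPKM in wild type at day 3, where it fell, and rose at day 5, a difference of 5.58 (SE 1.14). ANKRD1 went the opposite way, with 2.34 FPKM in Het and 0.294 FPKM in wild type at day 3, a difference of -4.51 (SE 1.00). EDN1, the endothelin ligand, had 0.451 FPKM in Het and 1.46 FPKM in wild type at day 5, and 1.68 FPKM in Het and 0.118 FPKM in wild type at day 3. GREM1 rose at both days, by less at day 5, with 22.8 FPKM in Het and 0.856 FPKM in wild type at day 3. For SOX10 the difference of 3.42 (SE 1.13) did not pass, and neither did those of CTGF (-2.37) and CYR61 (-2.35). With the SE scaled down to match the deposited p-values, all 3 passed.

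The KO line at day 5 was set beside both genotypes. The comparison of KO with Het shares the Het libraries, and that of KO with wild type shares the wild-type libraries, so the values are set side by side only. KO against Het called 1156 of 14013 tested genes (8.25%), 797 higher in KO (5.69%) and 359 lower (2.56%). SOX10 had 34.6 FPKM in KO, 7.07 FPKM in Het and 0.388 FPKM in wild type, and FOXD3 had 18.6 FPKM in KO, 4.49 FPKM in Het and 0.198 FPKM in wild type. ZIC1 had 22.3 FPKM in KO, 5.16 FPKM in Het and 0.605 FPKM in wild type, and TFAP2A had 29.6 FPKM in KO, 12.7 FPKM in Het and 1.98 FPKM in wild type. For these 4 genes Het lay between wild type and KO, and the deposited test also called KO higher than Het. WNT3A followed another order, with 6.22 FPKM in KO, 11.2 FPKM in Het and 3.31 FPKM in wild type. Among the border factors 4 were higher and 2 lower in KO than in Het, and among the WNT ligands and modulators none was higher and 5 were lower.

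Several genes that fell in Het were higher in KO than in Het. MYC had 208 FPKM in KO, 2.21 FPKM in Het and 7.46 FPKM in wild type, a log2 change of KO over Het of 6.56. EGFR, the epidermal growth factor receptor, had 145 FPKM in KO, 4.09 FPKM in Het and 8.54 FPKM in wild type. IGFBP3, a carrier of insulin-like growth factors, had 60.2 FPKM in KO, 2.22 FPKM in Het and 6.82 FPKM in wild type. DUSP6 had 58.3 FPKM in KO, 10.9 FPKM in Het and 37.7 FPKM in wild type, and HES1 had 29.6 FPKM in KO, 9.73 FPKM in Het and 32.4 FPKM in wild type. For DUSP6 and HES1, KO against wild type did not pass (Cuffdiff q = 0.184 and 0.913). Other falls went further in KO: DLL1 had 0.948 FPKM in KO, 5.25 FPKM in Het and 17.6 FPKM in wild type, and SOX21 had 1.68 FPKM in KO, 16.7 FPKM in Het and 32.7 FPKM in wild type. BNIP3 stood at 91.7 FPKM in KO, near its 81.4 FPKM in Het and below 189 FPKM in wild type. Of the 144 genes that fell in Het, 137 were tested between the edited lines, and 21 were higher and 28 lower in KO than in Het.

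Position and base composition moved with the result. Genes on chromosome 12 had a median log2 change of -0.27, with 81.8% of 694 genes expressed in both groups below 0. Its 737 tested genes, of 13527 over all chromosomes, held 27 of the 144 falls and 6 of the 152 rises. All 7 windows of 20 Mb along it had medians below 0, between -0.52 and -0.19, whereas windows on other chromosomes lay between -0.29 and 0.24. At day 3 the chromosome's median was -0.52. Its members among the genes above include SLC2A3, SLC2A14, ENO2, BCAT1, CCND2, DUSP6, MDM2 and GRIN2B, which fell, and WNT1 and WNT10B, which rose. The median change also climbed with the GC content of transcripts, with -0.21, -0.14, -0.07, 0.04 and 0.16 in 5 equal groups of genes ordered from low to high GC content. Across 11146 genes with a GC value (87.2%) Spearman's rho between change and GC content was 0.415, a description over genes of the same libraries. Chromosomes 11, 16, 17, 19 and 22 had medians above 0 at day 5 and below 0 at day 3, with 0.13 and -0.29 for chromosome 19. The transcripts of MIF and APOE, which fell at day 3 and rose at day 5, had a GC content of 67.1% and 65.7%, in the highest group. The part of GC content in changes at day 3 was not tested. Within GC bins chromosome 12 had a median of -0.22, the border factors 1.5, the midbrain and isthmus genes 1.19, the WNT ligands and modulators 0.29, the hypoxia and glycolysis genes -0.83 and the p53 targets -0.73. The part of chromosome 12 and of GC content in the falls was otherwise not tested.

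**Figure D5:**
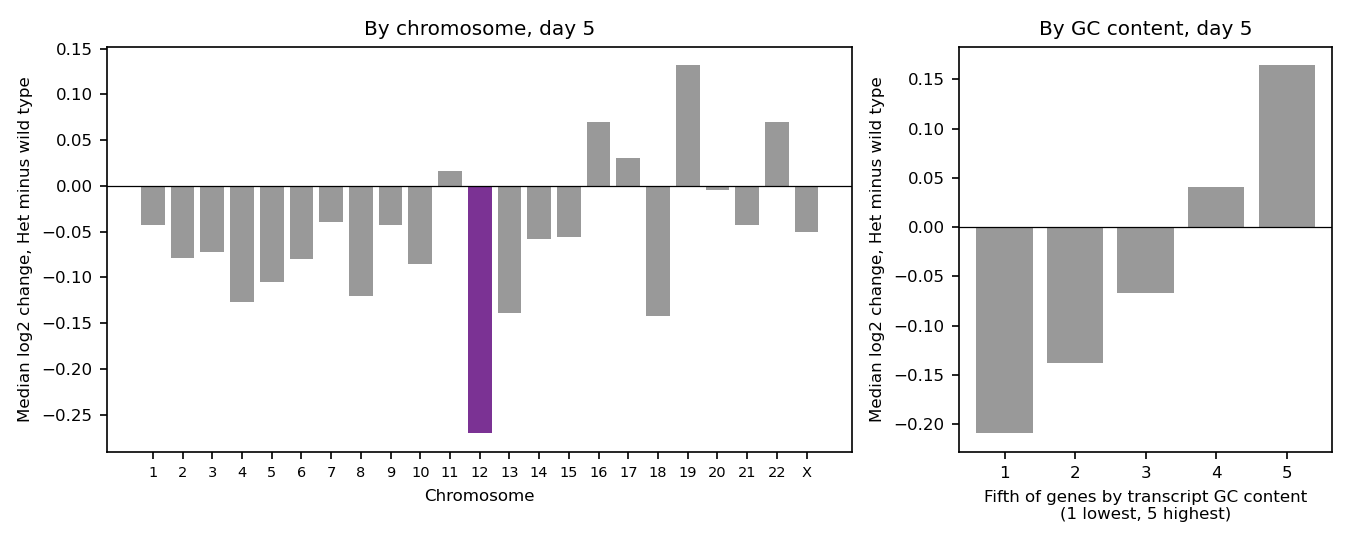
Median log2 change in FPKM, Het minus wild type at day 5, of genes expressed in both groups, by chromosome (left, chromosome 12 in purple) and by 5 equal groups of transcript GC content (right, 1 lowest). Chromosome 12 lies at -0.27, and the GC groups run between -0.21 and 0.16.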

How the data were processed

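Poly-adenylated RNA was sequenced from 16 samples in 8 groups, of which Het and wild type at day 5 were compared. Per the submitters' processing notes, reads were aligned to hg19 with TopHat2 2.1.1, and Cuffdiff 2.2.1 made the group values and tests; the sources used here give neither the annotation nor any read filter. The deposited FPKM are 1 value per gene and group, so no count, depth or value per library was at hand and no model could be fitted per library. The authors' fold changes are on the log2 scale, and the SE is the size of the log2 fold change divided by the deposited score. The deposited p-value has a lower limit of 5e-05, and recomputing the Benjamini-Hochberg procedure on 222234 p-values from 15 comparisons matched the deposited q-value to within 5.28e-07.

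Changes were computed as log2 of Het FPKM over wild-type FPKM, without a pseudocount for single genes and with 0.1 FPKM added for list medians. A gene was called at q below 0.05 with at least 1 FPKM in a group. Day 5 minus day 3 effects were tested from the implied SE. The table's HOMO group was taken to be KO. Labels do not say that libraries came from separate cultures, so p-values measure only the spread between these samples. Members and gene lists were chosen with earlier results of these data known.

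Genes named were FOXB1, the 15 largest called rises and falls, the 8 most abundant called genes each way, up to 4 called members of each list each way or, with fewer than 2 called, its 2 most abundant, the largest differences between days, and up to 6 genes each way called also between KO and Het. Other list members and the genes of the closing section were named after their values were seen, and 2 Y-linked genes are counted but not named, and a few list members are not reported here. GC content came from GENCODE 29 transcripts matched by symbol, and promoters from RefSeq, which matched 10296 of 13527 tested genes. Python 3.11.15, pandas 2.3.3 and scipy 1.17.1 were used. Alternatives were other adjustments, FPKM minimums, centring and GC bins.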

Additional observations from a re-analysis of the deposited data

Results flagged for a closer look

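The Het effect differed between day 5 and day 3 by the test of the difference itself (log2 day 5 minus day 3, Benjamini-Hochberg adjusted p under 0.05). Higher at day 5 were FLG at 8.05, ZNF560 at 7.04, SCGB3A2 at 6.31 and OLIG3 at 5.58, and lower at day 5 were EDN1 at -5.52, ANKRD1 at -4.51, PAPPA at -3.46, ANXA1 at -3.41 and GREM1 at -3.28. FLG, a protein of the epidermal barrier, had 1.80 FPKM in Het and 1.67 FPKM in wild type at day 5, and 0.0190 FPKM in Het and 4.63 FPKM in wild type at day 3. SCGB3A2, a secretoglobin of airway epithelium, had 1.87 FPKM in Het and 1.12 FPKM in wild type at day 5, and 0.613 FPKM in Het and 29.2 FPKM in wild type at day 3. ANXA1, an annexin, had 26.8 FPKM in Het and 47.9 FPKM in wild type at day 5, and 6.26 FPKM in Het and 1.06 FPKM in wild type at day 3. ZNF560 had 2.16 FPKM in Het and 2.57 FPKM in wild type at day 5. At day 3 it had 0.0418 FPKM in Het and 6.54 FPKM in wild type. The deposited test called ZNF560 at neither day (Cuffdiff q = 0.849 at day 5 and 0.0748 at day 3). Without small RNA features SCGB3A2, ANXA1 and GREM1 no longer passed.

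KO and Het differed at day 5, by the deposited test between them, for genes that had also changed between Het and wild type. Log2 KO minus Het was 6.56 for MYC, 5.15 for EGFR, 4.76 for IGFBP3, 3.40 for ARC, 3.30 for BHLHE40 and 3.29 for PCDH17, all of which fell in Het. It was -4.71 for PI15, -4.50 for VGLL3, -4.32 for NTRK2, -4.25 for LINC00052, -3.76 for CNTN3 and -3.31 for SOX21, which also fell in Het. PI15, a secreted protease inhibitor, had 0.650 FPKM in KO, 17.0 FPKM in Het and 43.9 FPKM in wild type, and VGLL3 had 3.40 FPKM in KO, 76.9 FPKM in Het and 170 FPKM in wild type.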

How the results depend on the processing

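The number of calls depended on how p-values were read. Against 296 calls (152 rises, 144 falls), adjustment over this comparison alone gave 113 (66 and 47), q below 0.01 gave 132 (75 and 57), at least 5 FPKM gave 197 with 72 rises, and at least 1 FPKM in both groups left 91 rises. A normal p of the test score gave 32 (28 and 4), the same centred on the median 33 (29 and 4), and within GC bins 13 (11 and 2). With the SE scaled by 0.642 to match the deposited p-values, an alternative added after seeing the data, these became 196 (82 falls), 196 (72 falls) and 160 (94 and 66). Of 133 named genes, 93 kept their side of the threshold when adjusted over this comparison alone and 40 no longer passed. No called named gene changed sign; of those not called, 3 near 0 did: CRABP1 and PCNA within GC bins (-0.03 and 0.05) and ATF4 when centred on the median (0.03). Counting members above 0 FPKM, list medians became 0.41 for border factors, 0.68 for midbrain and isthmus genes and 0.0697 for primitive streak, mesoderm and endoderm genes; no other list moved by more than its spread. The medians of 5 lists near 0 changed sign: WNT receptors and targets (-0.01), pluripotency (0.06) and housekeeping genes (0.03) within GC bins, placode and epidermal genes counting members above 0 FPKM (0.02) and axon guidance genes without chromosome 12 (0.05). For the difference between days, 17 calls (10 higher, 7 lower) became 186 (126 and 60) with scaled SE, 9 (6 and 3) with at least 1 FPKM in all 4 groups, 7 (4 and 3) without small RNA features and 178 (120 and 58) with both changes of SE and features. The counts of KO against Het stayed within 1.5 times under the alternatives run. No paired analysis was possible because the table holds no value per replicate, and leaving out replicates was not run for the same reason. Depth is unknown. The smallest called change was 0.76 on the log2 scale, against a median implied SE of 0.515, so smaller changes, among them those near the SE, were not called.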

Other observations

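Other genes called at day 5 are given here, chosen after their values were seen, with no test of the groups they belong to. Among heat-shock genes, the chaperone HSPA1B fell, as HSPA6 and HSPA4L did, and had 22.7 FPKM in Het and 43.1 FPKM in wild type (log2 change -0.92, SE 0.47) and its partner HSPH1 had 27.3 FPKM in Het and 46.3 FPKM in wild type (log2 change -0.76, SE 0.43). Called rises among genes of blood clotting were TFPI, the inhibitor of tissue factor, at 24.4 FPKM in Het and 6.16 FPKM in wild type, PROS1 at 7.91 FPKM in Het and 2.1 FPKM in wild type, and F10 at 1.98 FPKM in Het and 0.472 FPKM in wild type. The arrestin-domain gene ARRDC4, which glucose induces, had 43.6 FPKM in Het and 95.4 FPKM in wild type, and the transferrin receptor TFRC had 40.3 FPKM in Het and 92.6 FPKM in wild type; both fell. CD74, the invariant chain of MHC class II, rose to 15.2 FPKM in Het, against 4.70 FPKM in wild type.

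Features listed at 0 in a group numbered 79 in Het, of which 78 were small RNAs and none was called, and 69 in wild type, of which 66 were small RNAs and 1, SNORD116-20, was called (113 FPKM in Het). EEF1A1, a translation factor that every cell uses, was listed at 0 in wild type and at 8602 FPKM in Het, with no test. Cuffdiff gave it the status HIDATA in place of a test, and it was also listed at 0 in KO at day 5 and in wild type at day 3. Its 0 values are therefore not read as absence of the mRNA.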
